A study of Mus musculus with 10 samples.

Results

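The clustered histone genes are the genes that supply the core and linker histones of chromatin while DNA is copied. They were taken as every protein-coding gene of the GENCODE annotation of the mouse mm9 genome whose symbol begins with Hist1h, Hist2h, Hist3h or Hist4h, which gave 67 of 22380 protein-coding genes. Of these, 6 encode the linker histone H1, 19 encode H2A, 18 encode H2B, 11 encode H3 and 13 encode H4. The Hist1 locus on chromosome 13 holds 55 of them, the Hist2 locus on chromosome 3 holds 9, and the Hist3 locus on chromosome 11 holds 2. On chromosome 6, Hist4h4 is the only one of the 67, beside the histone gene H2afj, which the symbol rule leaves out.

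The data were lists of regions enriched in trimethylation of lysine 27 of histone H3 (H3K27me3), measured by ChIP-seq in a mouse B-cell lymphoma line and in 4 lines derived from it. The parental line came from a C57BL/6J mouse that carried Eμ-Myc, a Myc transgene driven by the immunoglobulin heavy chain enhancer, and that lacked Cdkn2a (Cdkn2a-/-), a tumour suppressor locus. The lines R100, R500, R1000 and R4000 were grown out of this 1 culture in rising doses of mafosfamide, a DNA alkylating relative of cyclophosphamide, to 100, 500, 1000 and 4000 nM. The transgene and the deletion are thus shared by all 5 lines, including the parental control. Cells were grown without the drug before the ChIP, so the lists compare resistant lines and not treated with untreated cells. The escalation is given as 34 days in 1 place and the harvests as days 10, 18, 23 and 37 in another, so no time scale was used here. There was 1 list per line, with positions only, so no difference between lines could be tested and the read depth behind a peak is unknown.

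Where 5 values follow each other, they stand for the parental line and then for the resistant lines by rising dose. The lists held 10778, 25180, 21888, 9595 and 6820 distinct peaks, with a median width of 100 bp in each, and 1.63, 5.04, 4.53, 1.61 and 1.07 Mb in peaks. Peak lists do not give expression, so the B-cell label could be set only beside the mark: of 8 B-cell genes, 0, 3, 3, 2 and 1 had at least 150 bp in peaks within 2 kb of the start, and of 8 genes of other lineages 2, 4, 2, 1 and 0. Over all protein-coding genes the shares were 5.25, 17.4, 13.3, 6.92 and 5.5%. In R100 the 95% Wilson intervals of the lists ran from 13.7 to 69.4% and from 21.5 to 78.5%. Lists this short do not test the label.

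Most histone mRNA is made in S phase from these genes, which are short, mostly lack introns and end in a stem-loop in place of a poly(A) tail. Their transcription is concentrated in nuclear structures called histone locus bodies and is coordinated by Npat. Many H2A and H2B genes are arranged head to head around a shared promoter. H3K27me3 is laid down by polycomb repressive complex 2 and is typical of silent developmental genes such as the Hox genes, and the histones that carry the mark are themselves products of the genes described here. In this annotation 61 of the 67 genes had 1 exon, and the median gene length was 530 bp against 15420 bp over all protein-coding genes. There were 13 head-to-head pairs, 12 of them of an H2A with an H2B gene, with 168 to 693 bp between the starts and a median of 241 bp.

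The promoter sequences of the member with the most H3K27me3 bases in the H1, H2A, H2B and H3 classes are shown from 250 bases before the annotated start to 50 bases from it onward, read from the mm9 (NCBIM37) assembly on the strand of the gene. Capitals mark CCAAT and TATAAA on either strand (as ATTGG and TTTATA on the other). The set shows the letters next to the start in the members with the most listed bases. A peak overlaps the printed stretch in Hist3h2ba only, and those of the other 3 genes begin farther downstream. They are Hist1h1b, a linker histone (chr13:21872445-21872744, minus strand), Hist1h2ai, an H2A (chr13:21808031-21808330, plus strand), Hist3h2ba, an H2B (chr11:58762163-58762462, plus strand), and Hist1h3h, an H3 (chr13:21809247-21809546, plus strand).
Hist1h1b: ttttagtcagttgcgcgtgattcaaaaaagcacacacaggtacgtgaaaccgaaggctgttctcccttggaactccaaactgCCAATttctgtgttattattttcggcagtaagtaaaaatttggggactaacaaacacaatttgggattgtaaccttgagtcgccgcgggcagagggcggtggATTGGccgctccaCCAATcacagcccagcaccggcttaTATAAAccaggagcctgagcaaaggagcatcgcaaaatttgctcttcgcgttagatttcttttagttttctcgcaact
Hist1h2ai: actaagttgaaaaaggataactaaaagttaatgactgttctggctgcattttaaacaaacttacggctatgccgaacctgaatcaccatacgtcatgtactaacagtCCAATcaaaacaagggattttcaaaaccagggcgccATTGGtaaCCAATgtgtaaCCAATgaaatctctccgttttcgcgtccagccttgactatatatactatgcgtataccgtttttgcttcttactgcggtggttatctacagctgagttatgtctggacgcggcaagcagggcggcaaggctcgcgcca
Hist3h2ba: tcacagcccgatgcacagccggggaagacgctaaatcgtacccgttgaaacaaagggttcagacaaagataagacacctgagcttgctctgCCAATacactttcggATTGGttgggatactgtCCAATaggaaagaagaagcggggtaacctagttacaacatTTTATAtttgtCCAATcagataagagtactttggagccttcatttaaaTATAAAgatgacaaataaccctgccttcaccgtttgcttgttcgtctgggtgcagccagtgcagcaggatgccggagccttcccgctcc
Hist1h3h: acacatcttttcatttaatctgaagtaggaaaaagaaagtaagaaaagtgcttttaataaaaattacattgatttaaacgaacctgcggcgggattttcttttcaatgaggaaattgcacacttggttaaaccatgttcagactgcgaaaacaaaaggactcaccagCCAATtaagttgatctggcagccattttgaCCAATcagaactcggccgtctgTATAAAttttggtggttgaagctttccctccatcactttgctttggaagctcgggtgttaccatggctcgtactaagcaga

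Hist2h2ab, an H2A gene with no covered base in any line (chr3:96023589-96023888, plus strand), is shown for contrast.
Hist2h2ab: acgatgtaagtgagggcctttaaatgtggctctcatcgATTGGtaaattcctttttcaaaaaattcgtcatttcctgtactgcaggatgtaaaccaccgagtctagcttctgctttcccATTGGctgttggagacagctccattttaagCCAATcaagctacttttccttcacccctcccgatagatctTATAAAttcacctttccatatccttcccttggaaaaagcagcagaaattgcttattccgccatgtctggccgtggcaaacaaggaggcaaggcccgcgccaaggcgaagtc

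Both motifs stand in Hist2h2ab as they do in Hist3h2ba, the member with the most covered bases. Within the 250 bases upstream of the start, CCAAT was found on either strand in 57 of 67 histone genes (85.1%) against 35.0% of all protein-coding genes, and TATAAA in 33 (49.3%) against 12.3%. The octamer ATTTGCAT, a binding sequence of Oct-1, was found in 15 (22.4%) against 1.62%. It stood in 7 of 19 H2A and 8 of 18 H2B promoters, and in none of the 6 H1, 11 H3 or 13 H4 promoters. CCAAT was in all H1, H2A and H2B promoters but in 4 of 13 H4 promoters. None of the 3 motifs contains another, and a match is a description of the letters only. The GC content within 1 kb of the start ranged from 42.6 to 55.7% with a median of 49.4% (51.1% over all genes), and the ratio of observed to expected CpG had a median of 0.751 (0.468 over all genes).

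The question here was whether histone promoters took part in changes of H3K27me3 at gene starts between the parental and the resistant lines, which the study profiled for the mark of polycomb repressive complex 2. A promoter, taken as 2 kb on each side of the transcription start site (TSS), was called covered where at least 150 bp lay in peaks. By this measure 1 of 67 histone promoters was covered in each of the 5 lines, and it was Hist3h2ba each time. In the parental line that is 1.49% (95% Wilson interval 0.264 to 7.98%, counting error only) against 5.25% of all protein-coding genes. Over all genes the share was 17.4% for R100 and 13.3% for R500, then 6.92% for R1000 and 5.5% for R4000, while that of the histone genes stayed at 1.49%. The values over all genes in R100 and R500 lie above the interval of the histone genes, and those in the other 3 lines lie within it. Neighbouring histone genes share windows, which the interval ignores: with the 33 separate blocks as the unit, 1 of 33 was covered in each line (3.03%, interval 0.537 to 15.3%), and R100 alone lies above it.

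None of the histone promoters went from uncovered in the parental line to covered in either low-dose line, R100 or R500 (0 of 67, upper Wilson bound 5.42%, or 10.4% with 0 of 33 blocks), against 14.3% of all genes. The promoter covered in all lines was again Hist3h2ba (1 of 67), against 3.17% of all genes. Promoters covered in no line numbered 66 of 67 (98.5%), against 79.9% of all genes. Gene bodies gave the same picture: 1 of 67 reached 150 bp in R500, where 13.7% of all genes did. None of 67 did elsewhere, where the shares over all genes were 5.67% (parental line), 17.7% (R100), 6.68% (R1000) and 5.18% (R4000). A body of 530 bp offers less length for peaks than one of 15420 bp, so the promoter windows, which have the same length in every gene, are the closer comparison.

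**Figure D1:**
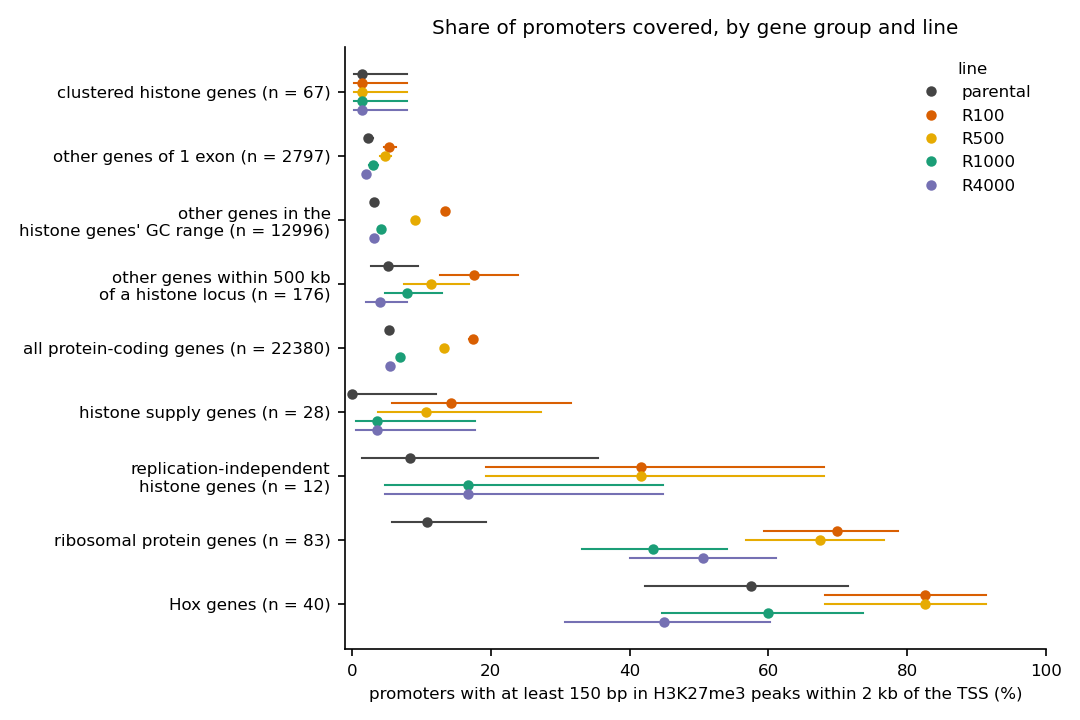
Share of promoters with at least 150 bp in H3K27me3 peaks (x axis, percent) for 9 groups of genes (y axis), 1 point per line with its 95% Wilson interval. The clustered histone genes stay at 1.49% in all 5 lines while all protein-coding genes reach 17.4% in R100 and the ribosomal protein genes 69.9%.

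The absence was not a matter of the 150 bp limit alone. In 60 of the 67 genes (89.6%) no base within 2 kb of the start lay in a peak in any line, against 65.1% of all genes. In 63 of 67 no base of the gene body did, against 64.0% of all genes. No histone promoter other than that of Hist3h2ba held more than 100 bp, so nothing lay between 100 bp, held by Hist1h1b in R100, and 400 bp, held by Hist3h2ba in the parental line. The median over the members was 0 bp in every line, as it was over all genes. The mean was 5.97, 12.7, 18.7, 11.9 and 12.1 bp per promoter, against 32.1, 124, 106, 42.0 and 30.2 bp over all genes. The 33 blocks span 173.7 kb in all.

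**Figure D2:**
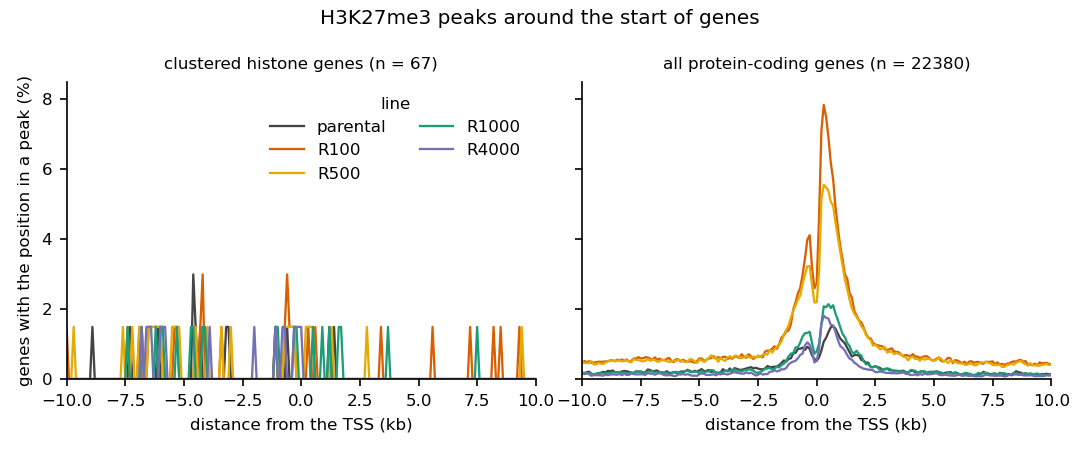
Percent of genes with a given position in a peak (y axis) by distance from the TSS (x axis, kb), for the 67 histone genes and all 22380 protein-coding genes, 1 curve per line. All genes show a rise beside the start, to 7.83% at 300 bp in R100, and the histone genes show isolated spikes of 1 or 2 genes.

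At any distance within 10 kb of the start, at most 2 of 67 histone genes had the position in a peak. Over all genes the highest share, always 300 to 700 bp past the start, was 1.51, 7.83, 5.55, 2.14 and 1.81%. The histone genes showed no such rise at the start in the plot of position against distance.

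Genes that share features with the histone genes also had lower shares than all genes. The 12996 other genes with a GC content in the histone genes' range had a covered promoter in 3.11, 13.4, 9.05, 4.23 and 3.22%. The 2797 other genes with 1 exon, among them many receptor genes of the smell and pheromone senses, had one in 2.32, 5.36, 4.76, 3.0 and 1.97%. All 5 of the latter values lie within the interval of the histone genes. Of these genes, 89.2% had no covered base within 2 kb in any line, next to 89.6% of the histone genes. The low share is thus not particular to histone genes among genes of 1 exon, and the part of gene structure in it was not tested.

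Hist3h2ba encodes an H2B and lies at chr11:58762413-58763032 on the plus strand (ENSMUSG00000056895.2). Its promoter window held 400, 700, 1200, 550 and 700 bp in peaks. R500 was highest and the parental line lowest, and the lists, 1 per line, cannot say whether these differ. The window held 6, 3, 5, 4 and 3 peaks. In the parental line they were 50 or 100 bp wide and scattered from 1562 bp upstream to 1487 bp downstream of the start.

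The widest peak over any histone window lay at Hist3h2ba in every line. It was 100, 550, 550, 200 and 350 bp wide. The 550 bp peak had identical ends in R100 and R500, from 762 to 213 bp upstream of the start. In R1000 the widest peak ran from 312 to 113 bp upstream, and in R4000 from 312 bp upstream to 37 bp past the start. Inside the gene, R100 had a 100 bp peak beginning 288 bp from the start and R500 a 350 bp peak beginning 188 bp from it, which made R500 the line with the covered body. Covered bases in the body were 0, 100, 350, 0 and 38.

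**Figure D3:**
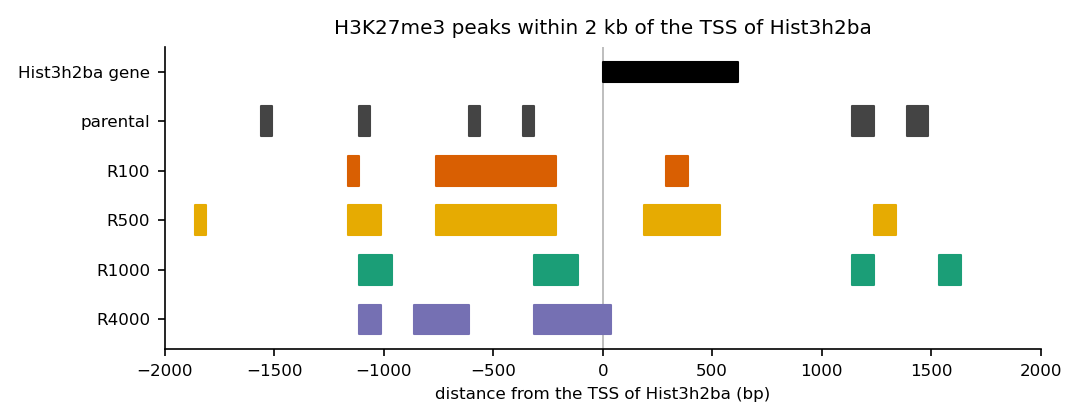
Peaks within 2 kb of the TSS of Hist3h2ba (x axis, bp from the TSS), 1 row per line, with the gene drawn as a black bar of 620 bp. The 550 bp peak upstream of the start is in the same place in R100 and R500, and no column of peaks runs through all 5 rows.

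Although the window was covered in all 5 lines, no base of it was. Of its bases, 950 were in a peak in 1 line only, 550 in 2 lines, 300 in 3, 150 in 4 and 0 in 5. R100 and R500 shared 700 of the 1200 bases covered in either (58.3%), and the other 9 pairs of lines shared between 4.76 and 31.6%. R100 and R500 were thus the closest pair at this gene.

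The 2 stretches covered in 4 lines are shown as the most recurrent sequence under the mark at a histone gene. The first (chr11:58761301-58761350, plus strand) was in peaks in the parental line, R500, R1000 and R4000, and a peak of R100 (chr11:58761251-58761300) ends directly before it. The second (chr11:58762101-58762200, plus strand) lies 312 to 213 bp upstream of the start and holds 7 CpG. It was in peaks in the 4 resistant lines but not in the parental line, where a peak (chr11:58762051-58762100) ends directly before it. The line missing from each stretch thus had a peak beside it on the 50 bp grid.
Hist3h2ba upstream stretch 1: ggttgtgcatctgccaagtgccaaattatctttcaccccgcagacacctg
Hist3h2ba upstream stretch 2: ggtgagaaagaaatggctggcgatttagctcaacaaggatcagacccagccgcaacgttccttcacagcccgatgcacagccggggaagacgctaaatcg

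The genes around Hist3h2ba had few or no listed bases. The start of Rnf187, a ubiquitin ligase, lies 9995 bp away with 0 bp in all lines. Hist3h2a, the other gene of the locus and an H2A, begins 5774 bp downstream at the same annotated start as Trim17, and had 50 bp in R100 and 0 bp in the other 4 lines. Of the 50-base words in the promoter window of Hist3h2ba, 95.7% occur once in the genome.

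Among the 6 H1 genes, Hist1h1b had 0, 100, 50, 50 and 0 bp. Its 3 peaks were separate, beginning 544 bp (R100), 344 bp (R500) and 894 bp (R1000) past the start, the last beyond the end of the gene. Hist1h1a, Hist1h1c, Hist1h1d, Hist1h1e and Hist1h1t all had 0 bp in every line. Hist1h1t is the testis form of H1. The nearest peak to another H1 gene lay 3030 bp from the start of Hist1h1e, in the parental line.

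Among the H2A genes, Hist1h2ai held 50 bp in R1000 and 50 bp in R4000, Hist3h2a held the 50 bp in R100, and the other 17 had none. Hist1h2ai shares its bases with the H2B gene Hist1h2bl (50 bp in R1000 and 12 bp in R4000) and with the H3 gene Hist1h3h (50 bp in each). All 3 windows overlap, so these values rest on a single 50 bp peak per line. The peaks are adjacent: that of R1000 begins 454 bp past the start of Hist1h3h and that of R4000 begins 504 bp past it. The other 10 H3 genes had 0 bp in every line.

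Among the H4 genes Hist2h4 held 50 bp in R1000, 1217 bp upstream of its start, and the other 12 had none. Outside the windows, Hist2h2bb, an H2B gene, held 100 bp within its body in R100. The testis forms Hist1h2ba (an H2B) and Hist1h2aa (an H2A), which face each other 306 bp apart, had no covered base in any line either. The first 10 uncovered members in genome order were Hist2h2ab, Hist2h2ac, Hist2h2be, Hist2h2aa2, Hist2h2aa1, Hist2h3c1, Hist2h4, Hist2h3b, Hist2h2bb and Hist4h4, of which Hist2h4 alone held any base in its window.

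Taken as a whole, the main Hist1 locus was not poor in peaks, except in R4000. The peaks were unevenly spread within it, and stretches that hold many histone genes had none, as described below. The main Hist1 locus spans chr13:21807632-24026720 (2.22 Mb, 54 members) and held 26, 58, 55, 24 and 9 peaks. This is 1530, 4210, 3450, 1440 and 315 bp in peaks per Mb, against 615, 1900, 1710, 607 and 404 per Mb over the genome. The locus was thus above the genome in 4 lines and below it in R4000. The windows of its histone genes make up 5.96% of the locus and were touched by 0, 1, 1, 2 and 1 of those peaks. They held 0.0, 1.07, 0.654, 3.12 and 7.14% of the bases in peaks of the locus. This share was below 5.96% in 4 lines and above it in R4000, where it rests on 1 peak of 50 bp.

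Of the peaks of the locus, 15, 35, 32, 12 and 7 lay in no protein-coding gene body. The widest of R100 (1100 bp), R500 (1050 bp) and R1000 (500 bp) were among these and began 26374, 26324 and 26374 bp past the end of Zfp322a, with the nearest histone gene start 134369, 134469 and 134969 bp away. Other peaks touched a few genes. Prss16, which encodes a serine protease of the thymic cortex, was touched by 6, 8, 12, 4 and 2 peaks. The promoter window of Btn1a1, which encodes butyrophilin of the milk fat globule, held 1100, 850, 650, 481 and 0 bp. That of Zfp184, a zinc finger gene, held 0, 450, 250, 250 and 0 bp, and that of Pom121l2 held 350 bp in R100 and 0 bp in the other lines. Most of the 49 other protein-coding genes between the outermost members of a locus are vomeronasal receptor genes of the Vmn1r family. Of the 49, 2, 4, 3, 3 and 0 had a covered promoter (4.08, 8.16, 6.12, 6.12 and 0.0%). These shares are lower than the 5.25, 17.4, 13.3, 6.92 and 5.5% of all genes. The 176 other genes within 500 kb of a locus, which include the 49, had 5.11, 17.6, 11.4, 7.95 and 3.98%. Their shares were above those of all genes in R100 and R1000 and below them in the other lines. In 83.7% of the 49, no base within 2 kb of the start lay in a peak in any line, next to 89.6% of the histone genes.

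**Figure D4:**
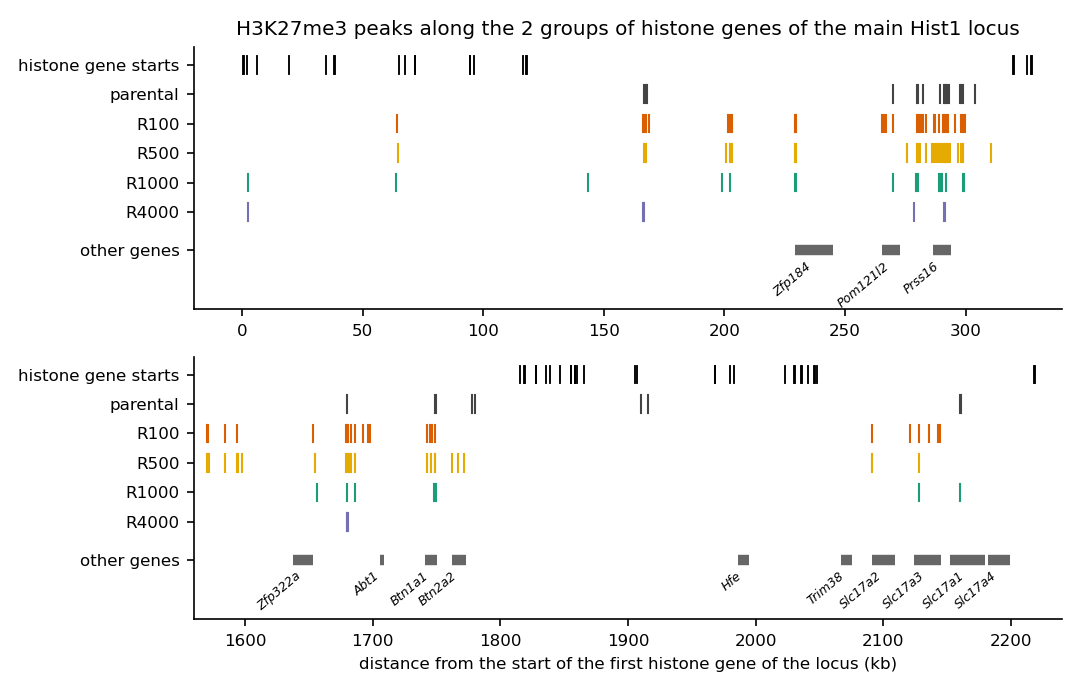
Peaks (coloured ticks at the peak centres, 1 row per line) along both groups of histone genes in the main Hist1 locus, by distance from the start of its first histone gene (x axis, kb), with histone gene starts on top and selected other genes as grey bars. The stretch between the panels is not drawn. Prss16 and Btn1a1 hold 8, 12, 16, 7 and 2 of the 26, 58, 55, 24 and 9 peaks of the locus, many others lie between genes, and few lie beside a histone gene start.

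Neighbouring histone genes often lay in the same stretch without a peak. The length of such stretches elsewhere in the genome was not measured, so the lengths below are not called unusual. From Hist1h4h to Hist1h1a, 29 members lay in 1 stretch without a peak, of 342 kb (R100), 319 kb (R500) and 379 kb (R1000). In R4000, 31 members from Hist1h4h to Hist1h2aa lay in a stretch of 1370 kb. In the parental line 2 peaks between Hist1h1e and Hist1h2ac divided these genes, into 16 members in 130 kb and 13 members in 244 kb. The Hist2 locus (chr3:96023839-96082924) held 0, 1, 0, 1 and 0 peaks.

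The distance from a histone gene start to the nearest peak had a median of 52.8, 43.0, 45.2, 43.4 and 79.6 kb, against 135, 32.2, 51.5, 115 and 153 kb over all genes. Histone genes were thus at the median nearer to a peak than all genes in 4 lines and farther in R100. Within 10 kb the share of histone genes was the lower one in 4 lines: 5.97, 13.4, 13.4, 20.9 and 10.4% of the histone genes had a peak that close, against 14.0, 36.2, 28.7, 17.4 and 15.1% of all genes. R1000 was the exception, with 14 of 67 members. Since neighbouring genes share their nearest peak, these values are descriptions and not 67 separate observations.

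**Figure D5:**
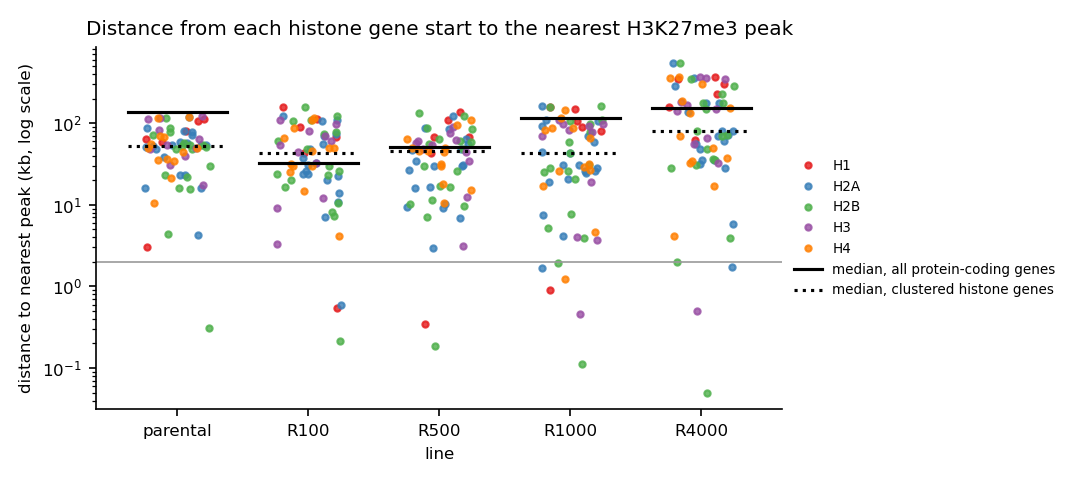
Distance from each of the 67 histone gene starts to the nearest peak (y axis, kb, log scale, 0 drawn at 0.05) in each line, coloured by histone class, with medians of the histone genes (dotted) and of all protein-coding genes (solid). Most points lie between 10 and 200 kb, and few fall under the grey line at 2 kb.

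In contrast, among the histone genes with other symbols, of which H2afj lies beside Hist4h4, several had covered promoters in the low-dose lines. Most of these genes are not tied to S phase, the list also holds H1foo of the oocyte and Hils1 of the spermatid, and 12 of 13 were in the annotation. A covered promoter was found in 1, 5, 5, 2 and 2 of them (8.33, 41.7, 41.7, 16.7 and 16.7%), against 5.25, 17.4, 13.3, 6.92 and 5.5% of all genes. Of the 12, 6 were uncovered in the parental line and covered in R100 or R500, against 14.3% of all genes. With 12 genes the Wilson interval of the share in R100 ran from 19.3 to 68.0%. It lies above that of the clustered genes, and its lower end is close to the 17.4% of all genes.

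H1fx, a linker histone variant, held 1200, 2600, 2400, 300 and 1200 bp and was covered in all lines. H2afx, the variant phosphorylated at DNA breaks, held 0, 400, 400, 0 and 150 bp. H3f3a, one of the H3.3 genes, held 0, 400, 300, 0 and 100 bp. The other H3.3 gene, H3f3b, held 0 bp in its window in every line, but 150 bp (R100) and 50 bp (R4000) within its body. H2afz, which encodes H2A.Z, held 350 bp in R100 only, and Cenpa, the centromeric H3, held 250 bp in R500 only. H2afj held 0, 150, 0, 150 and 50 bp, and H2afy, which encodes macroH2A, held 0, 100, 250, 0 and 0 bp. These genes thus differ among themselves, with most of the listed bases at H1fx.

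Of 28 genes that serve histone production, 0, 4, 3, 1 and 1 had a covered promoter (0.0, 14.3, 10.7, 3.57 and 3.57%), in each line a lower share than the 5.25, 17.4, 13.3, 6.92 and 5.5% of all genes. The share over all genes lay within the Wilson interval of this list in every line. Other measures went the other way. Of the 28 genes, 6 (21.4%) were uncovered in the parental line and covered in R100 or R500, against 14.3% of all genes. No base within 2 kb of the start lay in a peak in any line for 39.3% of the list, against 65.1% of all genes. Npat, the coactivator of the clustered genes in S phase, had 0 bp in every line. Slbp, which binds the stem-loop, had 100 bp in R100 only. Sympk, a scaffold of the cleavage complex, held 0, 450, 800, 300 and 0 bp, and Nasp, a histone chaperone, held 350 bp in R100 and 100 bp in R1000. Lsm11, a subunit of the U7 particle, held 100 bp in R100 and 250 bp in R4000. Casp8ap2 held 250 bp and Hinfp, an activator of H4 genes, held 150 bp, both in R500 only. Cpsf2, a subunit of the cleavage complex, held 400 bp in R100 and 50 bp in R4000, and Ubn1, part of the complex that deposits H3.3, held 250 bp in R100.

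Ribosomal protein genes, another family of short and heavily used genes, were covered in 10.8, 69.9, 67.5, 43.4 and 50.6% of 83 promoters, and Hox genes in 57.5, 82.5, 82.5, 60.0 and 45.0% of 40. The intervals of both families lay above that of the clustered histone genes in every resistant line, and for the Hox genes in the parental line too.

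The sequence itself limits what a read can show at some members. Reads were 50 bases long, and how reads with several matches were placed is not given in the sources used here. Of the 50-base words in a histone promoter window, a median of 85.2% occur once in the genome, and 20 of the 67 windows fall under 80%. At Hist1h2bq, Hist1h2ao, Hist1h4m, Hist1h4n, Hist1h2ap and Hist1h2br, the share was 1.04 to 20.5%, so what an absent peak means there depends on that placement. Its part in the low counts was not tested. Gene bodies are more alike, with a median of 54.2%. Among the 47 members with at least 80% unique words, for which placement matters less, 1 was covered in each line, again Hist3h2ba.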

How the data were processed

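H3K27me3 ChIP-seq was analysed in 5 lines with 1 list each; 5 bisulfite samples were not analysed here. The deposited files give positions only and no other value: no count, score or p-value. The submitters' processing notes name Bowtie and mm9; the authors compared immunoprecipitated with input libraries in windows by Poisson statistics. The authors report replicate ChIP-seq experiments (n = 2) with highly correlated profiles, which the lists do not show separately. The threshold for listing a peak, and whether replicate libraries were pooled, is not given in the sources used here. Positions are 1-based on a grid of 50 bp. Every peak stands 2 times in the lists of R100 and R500 and was counted once. Covered bases came from Python (3.11.15), numpy (2.4.6) and pandas (2.3.3), and the step was tested on 1000 simulated intervals with 0 differences. Sequences were read with pysam 0.24.0, and that of the H4 class is not reported here.

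Named genes were, per histone class, the members with the most and fewest covered promoter bases, every H1 gene, the leading members of the smaller loci, members covered in the parental line, the first 10 uncovered members and the widest peaks. The members and lists were chosen with earlier results of these data known. Lists were compared by counts, with 95% Wilson intervals for counting error only. With 1 list per line no test was possible. The closing section gives 9 alternatives.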

Additional observations from a re-analysis of the deposited data

How the results depend on the processing

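With at least 50 bp as the limit, 3 (R100), 2 (R500), 6 (R1000) and 3 (R4000) histone promoters counted as covered, 2 were gained in the low-dose lines, and 3 bodies (R100) and 2 bodies (R500) were covered. The shares of all promoters were then 28.1, 21.3, 12.5 and 11.1%. Of all genes, 24.5% were gained in the low-dose lines, and 28.9% (R100) and 22.1% (R500) had a covered body. With at least 500 bp, 0 promoters were covered in the parental line, 0 in all lines and 1 was gained (all genes 2.31, 1.2 and 6.11%), and 0 bodies were covered in R500 (6.69%). The same 3 promoter counts came from 500 bp on each side of the TSS (all genes 2.1, 1.05 and 11.1%) and from peaks of at least 200 bp (3.64, 1.89 and 10.7%). With the 5 kb upstream instead, the counts were 4 (parental line: Hist3h2ba, Hist3h2a, Hist1h2be and Hist1h1e), 2 (R100), 2 (R500) and 2 (R1000). The shares of all genes were 3.64, 9.13, 8.16 and 3.93%. Of the histone genes 1 was gained (Hist4h4), against 7.57% of all genes. The parental share of the histone genes was then 5.97%, above that of all genes. The parental calls share peaks: those of Hist3h2a also lie in the promoter window of Hist3h2ba, and Hist1h2be and Hist1h1e rest on the same peak. The bases that made Hist4h4 gained lie within the body of H2afj, in R100. Counts of histone genes were unchanged with the coding start as TSS, with members of at least 80% unique words, with lists of equal number (6820 peaks) and with overlapping genes as 1 block. The shares of all genes fell with the coding start, to 14.1% (R100), 10.8% (R500) and 11.7% (gained). With lists of equal number they fell to 11.8, 10.3 and 9.12%. These last values lie above the main intervals by gene (up to 7.98%, and 5.42% for gained). They lie within the intervals by block (up to 15.3 and 10.4%).

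The gained promoter under the 3 stricter settings is that of Hist3h2ba, whose parental peaks are narrow. No paired analysis was possible because the result comes from no test and each line has 1 list. An absent peak does not show an absent mark, since the depth and the threshold for listing a peak are unknown.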
